A study of Solanum lycopersicum with 36 samples.

Results

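Tomato leaf transcripts that the public annotation does not hold are described here: 188 genes that were defined from the sequenced reads themselves and that reached a mean FPKM of at least 3 over all 36 libraries. FPKM, fragments scaled by gene length and by the reads of the library, is a level per length of gene. They were chosen from 984 such genes among the 32246 genes of the deposited table, of which 104 were at 0 in every library and 692 were above 0 with a mean under 3. Each gene is called RD, for read-defined, followed by the number of its deposited identifier. Its mean level chose it, so levels over all libraries are given as a description. Just inside the threshold were RD709 (mean FPKM 3.05) and RD628 (3.03), and just outside it were the genes numbered 847 (3.00) and 496 (2.99).

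RNA was sequenced from leaves of Solanum lycopersicum seedlings that were either grafted (GSs) or not (NGSs), before (0 h) and 6, 12, 24, 48 or 96 h into 175 mM NaCl in Hoagland's solution, in 12 groups of 3 libraries, which the study describes as biological replicates. The labels call the NGSs self rooted, and the study's methods name the salt-sensitive variety Zhongza 9 and the salt-tolerant rootstock variety QZ-006, joined by split grafting, but the sources used here do not give the variety of the NGSs. The seedlings of both kinds were grown hydroponically before NaCl was added, and the 0 h libraries of each kind of seedling served as the control of all 5 later time points. With no library without salt after 0 h, the effect of NaCl cannot be told apart from that of elapsed time. The study's methods give 1 hour of the morning for sampling but not whether it also applied to the leaves of 6 and 12 h. Whether the hour of the day differed between time points is therefore not known here. If all seedlings received NaCl together, the leaves of 6 and 12 h alone fell at other hours than those of 0 h. Changes seen at 6 and 12 h alone therefore cannot be told apart from an effect of the hour of the day.

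In general, a gene is defined from reads where aligned RNA piles up outside every annotated gene. How it was done for this table is not given in the sources used here. Such genes can be coding genes that an annotation lacks, long noncoding RNAs, antisense or read-through transcripts, remnants of transposons, or RNA of organelles and ribosomes. Salt is known to change the leaf transcriptome in an early phase, when water uptake is impaired, and in a later one, when sodium has accumulated, and grafting on a tolerant root is used to slow that accumulation. Neither positions nor sequences of the read-defined genes were used here, so no function is given to any of them. Whether the counting used strand is not given in the sources used here, so reads of overlapping or antisense genes cannot be told apart. In a leaf as a whole, fewer cells of a type and less RNA per cell cannot be told apart either.

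Libraries held 15232863 to 26661747 reads on genes, and 0.212% to 0.473% of them lay on the 188 genes. The 3 NGS libraries at 0 h were the shallowest (15232863 to 18405075 reads). The 3 chloroplast antenna genes used as leaf markers, LOC101253380, CAB6A and LOC101267774, had mean FPKM of 135, 547 and 1232 and were above 0 in every library. Their lowest FPKM were 1.61, 10.8 and 85.7, so their levels changed strongly between libraries. At 24 h against 0 h their log2 fold changes were -2.97, -2.60 and -1.27 in GSs and -4.02, -3.52 and -1.47 in NGSs.

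4 NGS libraries stood apart in which genes they held at all. RD643 was read at FPKM 142, 0 and 146 in NGS replicates 7, 8 and 9 at 24 h and at 0, 39.1 and 65.4 in replicates 13, 14 and 15 at 96 h, while the other 32 libraries lay between 0 and 0.312. RD963 showed the opposite picture, with FPKM of 0.0721, 52.6 and 0 in the same replicates at 24 h, of 24.6, 6.64 and 3.81 at 96 h, and of 18.3 to 52.6 in the other 32 libraries. In both genes replicates 7 and 9 at 24 h were at one extreme, replicates 14 and 15 at 96 h lay in between, and replicate 8 and replicate 13 were like all remaining libraries. Over the whole table, 12 genes had this pattern by a rule made after the values were seen. Of these, 6 (5 annotated genes and RD963) had FPKM of at most 0.3 in replicates 7 and 9 and at least 3 in all 32 other libraries, and 6 (4 annotated genes and 2 read-defined ones, of which only RD643 reached a mean of 3) had at least 5 in these replicates and at most 0.5 in the 32. LOC101260648, for example, was at 0.142 and 0.0757 in NGS replicates 7 and 9 at 24 h, at 19.5 and 23.3 in replicates 14 and 15 at 96 h, and at 45.0 to 129 elsewhere. The labels give these 4 libraries the same description as their replicates, and what set them apart was not tested. Counts and calls of described genes that rest on NGS 24 h or 96 h were therefore also computed without them. That fit leaves 1 library in each of these groups, assumed to vary like the other groups. Its values are given below for part of these counts and calls. In NGSs at 24 h against 0 h, the log2 fold change of RD963 went from -3.24 to 0.55. That of RD818 went from 2.11 to 0.18 and that of RD779 from 1.40 to -0.01.

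Levels of the read-defined genes were low. Of the 188 genes, 134 had a mean FPKM of 3 to 10, 41 of 10 to 30, 9 of 30 to 90 and 4 of 90 or more, and the median was 6.36, against 14.8 over the 14529 annotated genes with a mean of at least 3. They were also shorter, with a median length of 1231 bases against 1645, and a median of 213 reads per library lay on each, against 614. All 188 passed the filter of the tests (3 or more libraries at FPKM 1 or higher), 170 were above 0 in every library and 117 were at 1 or more in every library. Replicates of a group spread more than in annotated genes. The median SD on the log2(FPKM + 1) scale was 0.333 over the 188 genes and 0.224 over the annotated ones, and within the band of 3 to 10 it was 0.328 against 0.231. Group means varied more as well, with a median SD of the 12 group means of 0.656 against 0.454 on the same scale. Together the 188 genes took 0.271% of the reads in GSs at 0 h, 0.444% at 6 h, 0.390% at 12 h and 0.311% to 0.365% later. In NGSs the share was 0.285% at 0 h, 0.400% at 6 h, 0.437% at 12 h and 0.278% to 0.343% later, so the mean share was highest in the first 12 h in both kinds of seedling, although the lowest GS library at 12 h (0.342%) lay below the highest at 96 h (0.394%). Summed FPKM, a measure per length, gave another order. It was highest in GSs at 96 h (3106 ± 337 (SD, n = 3), against 2979 ± 248 at 6 h) and in NGSs at 6 h (2988 ± 318, against 2920 ± 170 at 0 h).

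The 8 most abundant read-defined genes had mean FPKM of 59.9 to 317, and their courses differed in kind. RD56 (760 bases, mean 317) rose early. In GSs its FPKM went from 85.9, 185 and 134 at 0 h to 553, 656 and 632 by 6 h, stayed at 492, 772 and 606 by 12 h, and was back at 86.8, 103 and 70.5 by 24 h. In NGSs it went from 75.8, 81.9 and 78.4 at 0 h to 1019, 843 and 887 by 6 h, 426, 565 and 514 by 12 h and 88.9, 137 and 69.7 by 24 h. No library at 6 or 12 h overlapped with the 0 h libraries of its kind of seedling. The log2 fold change on the log2(FPKM + 1) scale, by limma over all 20090 genes tested, was 2.24 ± 0.30 (SE), adjusted p = 1.01e-06, in GSs at 6 h and 3.52 ± 0.30 (SE), adjusted p = 4.12e-10, in NGSs at 6 h. At 96 h it was called in NGSs (1.49 ± 0.30 (SE), adjusted p = 3.89e-04), and there the libraries were at 394, 163 and 170.3. Without replicates 14 and 15 a single library, the highest of the 3, remains in that group (2.31, adjusted p = 1.93e-04).

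RD888 (446 bases) had the largest swing of all 188 genes, with an SD of the 12 group means of 2.61 on the log2 scale. It nearly vanished in the first 12 h and then rose above its starting level. GS libraries were at 37.3, 75.4 and 90.8 before NaCl, 4.13, 2.56 and 4.55 by 6 h and 1.20, 1.23 and 0.534 by 12 h. They had 48.9, 196 and 86.2 by 24 h, 145, 220.2 and 163 by 48 h and 391, 245 and 136 by 96 h. NGS libraries were at 42.03, 70.7 and 62.01, 7.11, 6.91 and 5.37, 1.65, 0.631 and 2.91, 85.99, 119.9 and 135, 159.6, 157 and 129.9 and 395, 124 and 188 at the same time points. All 12 libraries of 6 and 12 h lay below all other 24. The fold change at 12 h was -5.04 ± 0.44 (SE), adjusted p = 3.89e-10, in GSs and -4.50 ± 0.44 (SE), adjusted p = 2.93e-09, in NGSs, and at 48 h it was 1.44 ± 0.44 (SE), adjusted p = 0.0158, and 1.37 ± 0.44 (SE), adjusted p = 0.0116. The annotated genes whose levels followed RD888 most closely over the 36 libraries were LOC101255051 (Pearson r = 0.98), LOC101252452 (0.98) and ACI112 (0.97), which share these libraries and time points with it.

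RD584 (2046 bases, mean 73.7) fell late. At 96 h it was at 12.2, 17.4 and 21.8 in GSs and at 31.2, 22.7 and 21.6 in NGSs, below every 0 h library (56.03, 107 and 83.3, and 90.2, 106 and 123). Its fold change there was -2.18 ± 0.27 (SE), adjusted p = 2.57e-06, in GSs and -2.05 ± 0.27 (SE), adjusted p = 4.20e-06, in NGSs. RD584 was also called down at 24 h (-1.50 in GSs and -1.85 in NGSs) and at 48 h in NGSs (-1.12). At 48 h in GSs it was not called (-0.60). RD422 (1638 bases, mean 108) was highest at 96 h in both kinds of seedling, at 216, 224 and 227 in GSs and 248, 176 and 302 in NGSs. Its GS libraries had started at 104, 103 and 132 and its NGS libraries at 85.05, 47.8 and 47.9, and the 0 h ranges of GSs and NGSs did not overlap. The NGS rise at 96 h was called (2.01 ± 0.27 (SE), adjusted p = 5.64e-06), as were an NGS rise at 24 h (1.29 ± 0.27 (SE), adjusted p = 3.79e-04) and a GS fall at 12 h (-1.24 ± 0.27 (SE), adjusted p = 8.15e-04). In GSs at 96 h the value was 0.98 ± 0.27 (SE), adjusted p = 0.00863, without a call. RD422 followed JERF3, an ethylene-response transcription factor of tomato, with r = 0.82 over the 36 libraries, and LOC101251319 with r = 0.83. RD299 and RD107, of 667 and 662 bases, had few calls. Against 0 h, RD299 was called at 48 h in GSs (-1.04) and at 6 and 48 h in NGSs (-1.18 and -1.12), and RD107 at 48 h in NGSs (-1.15), all falls on the log2 scale. The remaining members of the top 8, RD341 (mean 155) and RD519 (74.6), were called in no comparison, and their replicates spread widely: at 6 h in NGSs RD341 was at 21.4, 199 and 47.4, and at 12 h in NGSs RD519 was at 70.4, 253 and 78.5.

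**Figure D1:**
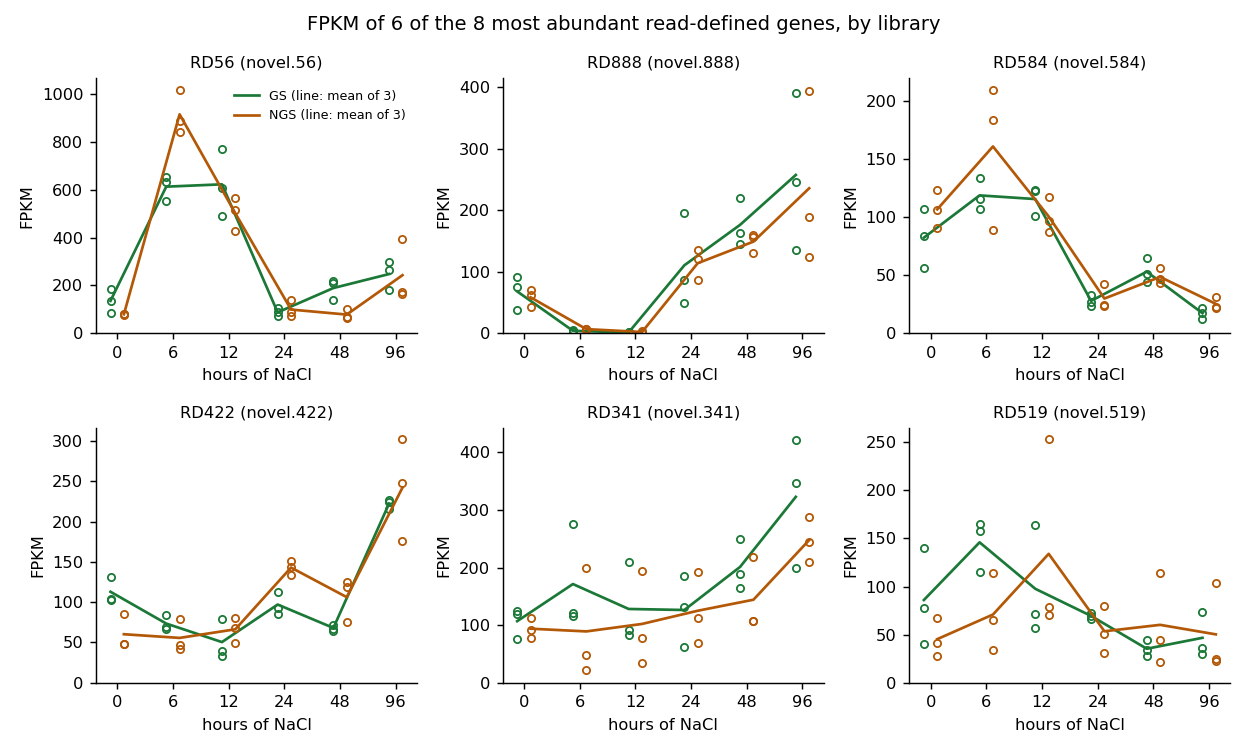
FPKM (vertical axis, linear) of 6 of the 8 most abundant read-defined genes against hours of NaCl, with 1 open circle per library, GSs in green and NGSs in brown, and lines through the means of 3 libraries. RD56 stands highest at 6 and 12 h, RD888 lowest at 6 and 12 h, RD584 lowest at 96 h, and the circles of RD341 and RD519 spread widely within groups.

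Against 0 h, 142 of the 188 genes (75.5%) were called in at least 1 of 10 comparisons, 5 in each kind of seedling. A call is a |log2 fold change| of at least 1 with an FDR under 0.05. The share over all 20090 genes tested was 56.5%, and over annotated genes with a mean FPKM of at least 3 it was 59.4%. The gap was present at low and middle levels: 75.4% against 55.3% in the band of 3 to 10, and 73.2% against 55.3% in the band of 10 to 30. At 90 and over, 3 of 4 read-defined genes were called, against 78.4% of annotated ones. Of the 188 genes, 28 reached a mean of 3 only with the help of 1 group, since their mean over the other 33 libraries was lower. Without such genes 73.1% of 160 read-defined and 58.8% of 14168 annotated genes were called. These shares are descriptions, since the genes were chosen with results of these libraries known.

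In GSs the read-defined genes were called most often at 6 h and 96 h. At 6 h, 40 rose and 26 fell, 35.1% in all, where the background over all genes tested was 10.3% up, 13% down and 23.3% in all. At 12 h, 21 rose and 19 fell (background 7.7% up, 8.66% down, 16.4% in all), and 24 h brought 12 rises and 10 falls (background 2.19% up, 5.06% down, 7.24% in all). The 48 h libraries gave 32 rises and 12 falls (background 7.12% up, 4.49% down, 11.6% in all). At 96 h, 35 rose and 22 fell, 30.3% in all (background 9.17% up, 4.4% down, 13.6% in all). In NGSs the counts lay between 59 and 72 at every time point. With the mean rRNA level of each library as a covariate they went from 66 at 6 h to 24 at 96 h. That level itself sets the NGS libraries at 0 h apart, as given below. At 6 h there were 34 up and 32 down (background 9.84% up, 15.2% down, 25.1% in all), at 12 h 40 up and 32 down (10%, 16.9%, 26.9%), and the 24 h libraries gave 32 up and 32 down (9.8%, 16.4%, 26.2%). At 48 h there were 32 up and 30 down (9.77%, 13.4%, 23.1%), and by 96 h 34 up and 25 down (9.25%, 9.47%, 18.7%). These are 31.4% to 38.3% of the 188 genes. Without the 4 libraries that stood apart, 73 were called in NGSs at 24 h in place of 64 and 47 at 96 h in place of 59. The GS count at 24 h was the least stable of the 10. It was 8 without GS replicate 1 at 0 h, 13 without replicate 8 at 24 h and 11 without replicate 9 at 24 h, against 22 with all libraries, and 7 in a fit of only the 6 libraries compared.

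At 6 h in GSs and 12 h in NGSs, the share above the background lay in the upward calls. The share of read-defined genes called up at 6 h in GSs was 21.3% against 10.3% of all genes tested, and at 12 h in NGSs it was 21.3% against 10%. The share called down at the same points was 13.8% against 13%, and 17.0% against 16.9%. At 96 h in GSs both directions stood above it, with 18.6% up against 9.17% and 11.7% down against 4.4%. Median fold changes over the 188 genes on the log2 scale were 0.30 in GSs at 6 h and 0.27 in NGSs at 24 h, against 0.01 and 0.02 over all genes tested. At 96 h the medians were -0.08 and -0.02, against -0.04 and -0.01.

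**Figure D2:**
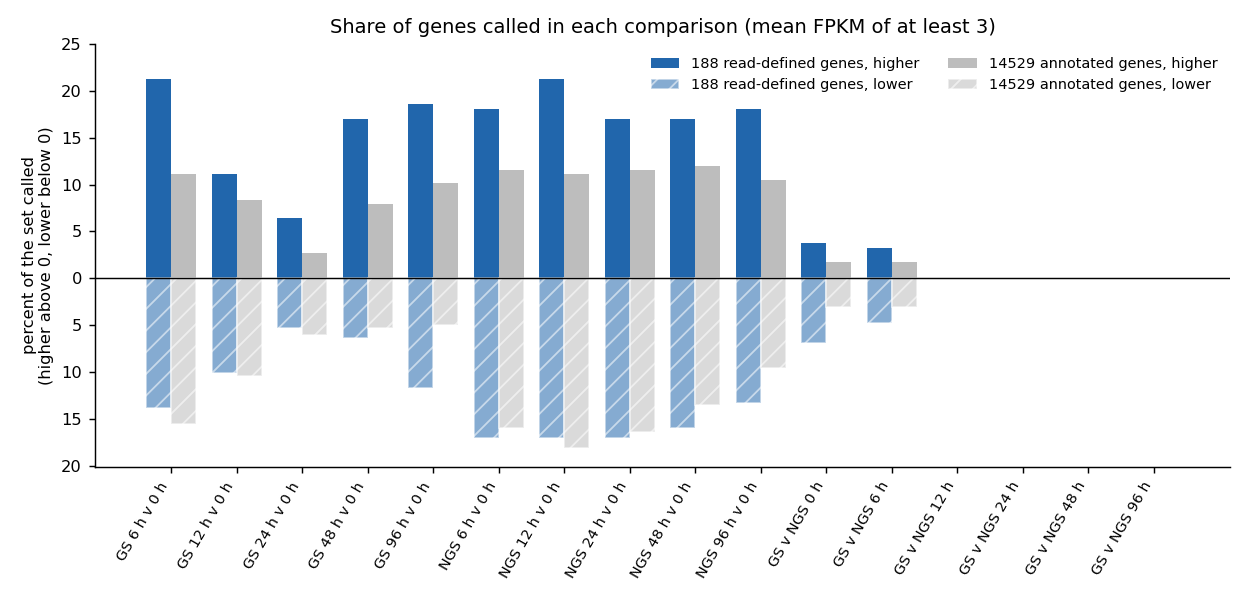
Percent of the 188 read-defined genes (blue) and of the 14529 annotated genes with mean FPKM of at least 3 (grey) called in each comparison, with genes called higher above 0 and genes called lower, hatched, below 0. The blue bars of higher genes are taller than the grey ones at every time point against 0 h, and the GSs against the NGSs have no visible bar from 12 h on.

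Time courses were sorted by when a gene was called against 0 h, and the time points of a kind of seedling share their 0 h libraries. In GSs, 45 genes were called at 6 or 12 h alone (background 17.9%), 38 at 24, 48 or 96 h alone (background 10.2%), 36 in both phases (background 11.7%) and 69 in neither (background 60.1%). In NGSs, 21 were called at 6 or 12 h alone (background 10.5%), 33 later alone (background 15.7%), 63 in both phases (background 22.2%) and 71 in neither (background 51.5%). As shares, the early class was 23.9% of the genes in GSs and 11.2% in NGSs, and annotated genes with a mean of at least 3 had 19.3% and 11.05%. The group with the highest mean on the log2 scale in GSs was most often 6 h (55 genes, 29.3%, against 22.7% of annotated genes). In NGSs it was most often 0 h (43 genes, 22.9%, against 25.4%). Called in all 5 NGS comparisons were 6 genes upward and 14 downward (background 5.76% in either direction). In all 5 GS comparisons 1 was called upward and 1 downward (background 0.781%). The 14, and the 63 called in both NGS phases, include the 6 short genes described below. RD971, RD965, RD631 and RD870 of that set reached a mean of 3 only through the NGSs at 0 h. They had to differ from that group, so these NGS counts are a description.

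RD578 (681 bases, mean 5.23) was the only one called in the same direction, down, in all 10 comparisons. It was at 17.4, 8.22 and 9.77 in GSs and 25.9, 19.4 and 26.00 in NGSs at 0 h. At 6 h it was at 1.82, 1.03 and 1.33 in GSs and 0.692, 0.802 and 0.326 in NGSs, and no later library of either kind of seedling exceeded 8.05. Its log2 fold change ranged from -1.46 ± 0.42 (SE, GSs at 12 h, adjusted p = 0.00799) to -3.95 ± 0.42 (NGSs at 6 h, adjusted p = 2.09e-08), with a median of -2.31. The most similar annotated gene was LOC101259818 (r = 0.89 over 36 libraries).

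Of the genes called at both 6 and 12 h in both kinds of seedling, 7 rose (background 2.94%) and 9 fell (background 4.11%), close to the shares of all genes tested. Genes of these classes outside the naming rule were picked after their values were seen. RD47 (1681 bases) rose from 2.16, 3.36 and 3.71 at 0 h to 42.9, 71.6 and 55.2 at 12 h in GSs and from 5.89, 7.79 and 10.8 to 27.5, 70.6 and 27.9 in NGSs, and was at 5.92, 3.71 and 4.19 and 3.32, 4.22 and 3.65 at 24 h. The rise at 12 h was 3.81 ± 0.32 (SE), adjusted p = 2.03e-10, in GSs and 2.12 ± 0.32 (SE), adjusted p = 3.99e-06, in NGSs. RD673 and RD867 had the same shape at lower levels. Group means of RD673 in NGSs were 0.412 at 0 h, 21.1 at 6 h and 1.55 at 24 h. Its log2 fold change in NGSs at 24 h was 0.64 with all libraries and 1.70 without the 4 that stood apart. Group means of RD867 in GSs were 0.289 at 0 h, 16.6 at 12 h and 0.762 at 24 h. Without GSs at 12 h the mean FPKM of RD867 was 2.22. It was thus kept for its level in that group, and its rise there is a description. RD672 (1297 bases) had the opposite shape. It went from 15.4, 15.4 and 28.3 at 0 h to 1.51, 1.96 and 1.23 at 6 h and 2.29, 2.79 and 1.65 at 12 h in GSs, and was at 19.6, 20.2 and 23.98 at 24 h. The fall at 6 h was -2.96 ± 0.25 (SE), adjusted p = 2.93e-10, in GSs and -2.20 ± 0.25 (SE), adjusted p = 5.81e-08, in NGSs. RD124 did the same, with group means of 16.8, 3.81, 3.76 and 16.2 at 0, 6, 12 and 24 h in NGSs.

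Some genes rose late. At both 48 and 96 h in both kinds of seedling, 11 read-defined genes were called up (5.85%, background 2.14%) and 4 down (2.13%, background 0.846%). Of these, 6 (3.19%, background 0.637%) and 1 (0.532%, background 0.0896%) were not called at 6 or 12 h. Among the 11, RD779, RD689 and RD596 had means of 1.96, 2.91 and 2.85 without GSs at 48 h, GSs at 96 h and NGSs at 48 h. They were kept through late groups, and RD779 and RD689 are also among the 6. These counts of late rises are therefore a description. Without the 4 libraries that stood apart, 8 were up, 4 of them not called at 6 or 12 h, and 4 were down. RD779 (478 bases) had the largest called rise of the 11. It was at 0.104, 0 and 0 in GSs at 0 h, 0 in all 3 GS libraries at 6 h, 13.2, 19.6 and 24.1 by 48 h and 6.70, 4.42 and 3.85 by 96 h. In NGSs it went from 0.130, 0.138 and 0 before NaCl to 9.14, 3.75 and 10.02 by 48 h and 4.26, 1.46 and 4.57 by 96 h. The fold change at 48 h was 4.23 ± 0.50 (SE), adjusted p = 9.36e-07, in GSs and 2.90 ± 0.50 (SE), adjusted p = 3.70e-05, in NGSs, on a scale that understates changes from such low levels. These values are a description, since RD779 had a mean of 1.96 without GSs at 48 h and so was kept for its level in that group. RD818 (818 bases) was at 1.70, 0.554 and 0.452 in GSs at 0 h, 0 in all 3 at 12 h and 30.9, 24.5 and 15.3 at 48 h, and in NGSs at 0, 0.483 and 0.229 at 0 h and 12.6, 8.90 and 9.34 at 96 h. Its rise at 96 h was 3.70 ± 0.66 (SE), adjusted p = 1.76e-04, in GSs and 3.19 ± 0.66 (SE), adjusted p = 4.95e-04, in NGSs. At 24 h in NGSs the values of RD779 and RD818 rested on the libraries that stood apart, as given above. RD791, a longer gene of 2257 bases, went from 7.48, 10.4 and 11.4 at 0 h to 57.4, 59.9 and 68.6 at 48 h in GSs and from 10.2, 10.1 and 7.71 to 52.04, 38.3 and 44.1 in NGSs, with 2.56 ± 0.34 (SE), adjusted p = 4.36e-06, and 2.15 ± 0.34 (SE), adjusted p = 1.28e-05. RD791 was chosen for mention after its values were seen.

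All 5 genes with the largest called rises had replicates that differed widely in some groups. For RD779 this was NGSs at 24 h. Its log2 fold change there was 1.40 with all 3 libraries and -0.01 with replicate 8 alone. RD498 (652 bases) rose in GSs to 106, 112 and 122 at 48 h and 91.1, 185 and 226 at 96 h from 1.37, 1.07 and 4.05 at 0 h (5.75 ± 1.05 (SE), adjusted p = 2.12e-04, at 96 h). At 6 and 12 h in GSs, however, it was at 4.09, 55.5 and 4.64 and at 13.4, 77.5 and 10.2, and in NGSs at 24 h at 6.52, 88.6 and 8.57, so that single libraries stood far above their replicates. RD59 (916 bases) rose in GSs at 6 h from 1.08, 3.33 and 6.05 to 54.1, 104 and 39.3 (3.95 ± 0.73 (SE), adjusted p = 9.40e-05), while NGS libraries went from 4.08, 11.1 and 11.2 to 7.58, 66.7 and 15.2 (1.22 ± 0.73 (SE), adjusted p = 0.176). RD667 (1136 bases) rose in NGSs at 24 h from 3.84, 2.96 and 1.93 to 20.5, 167 and 55.4 (3.94 ± 0.88 (SE), adjusted p = 5.84e-04), and the fold change was 5.46 without replicates 7 and 9. In RD498, RD59 and RD667 alike, NGS replicate 2 stood highest of the 3 at 6 h and GS replicate 5 highest of the 3 at 12 h. The call of RD643 in NGSs at 24 h (4.68 ± 1.18 (SE), adjusted p = 0.00185) came from replicates 7 and 9 alone, and without the 4 libraries that stood apart the value was -0.11 (adjusted p = 0.614).

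**Figure D3:**
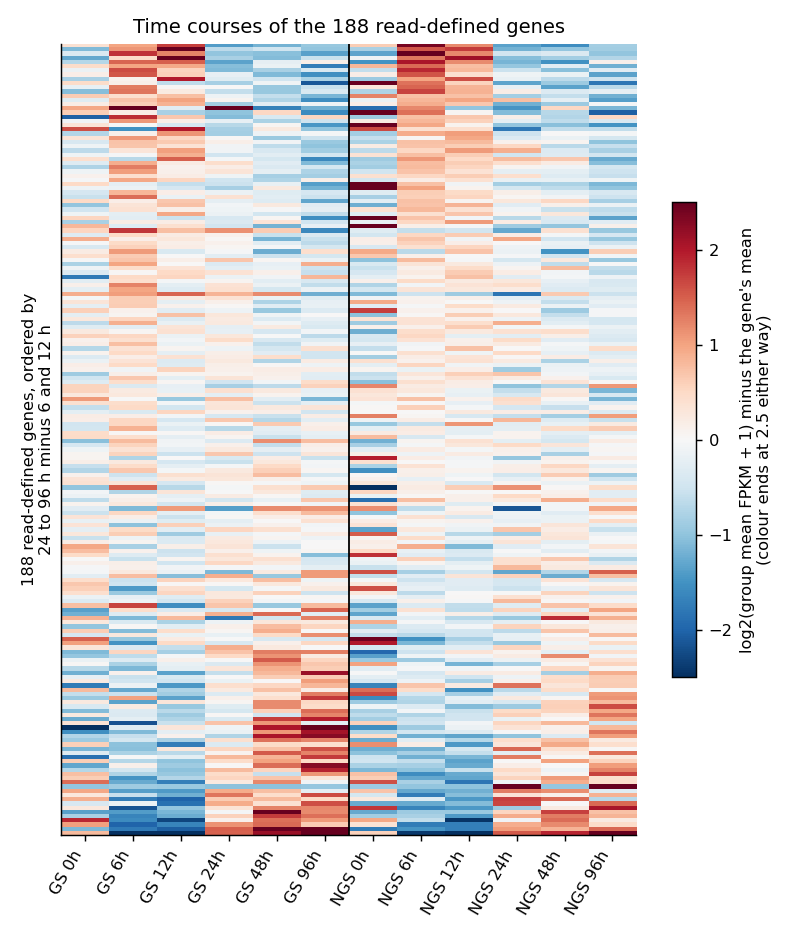
Heat map of the 188 read-defined genes (rows, ordered by their mean at 24 to 96 h minus that at 6 and 12 h) over the 12 groups (columns), coloured by log2(group mean FPKM + 1) minus the gene's own mean, with red above and blue below. Rows at the top are red at 6 and 12 h in both kinds of seedling, rows at the bottom are blue there and red from 24 h on, and several rows are dark red at 0 h in the NGSs alone.

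A set of 6 short genes carried the largest falls. RD960, RD971, RD870, RD631, RD965 and RD243 are 262, 265, 269, 277, 351 and 357 bases long and all belong to the 8 shortest of the 188. They were high in the NGS libraries at 0 h and low elsewhere. RD960 was at 276, 389.8 and 181 in NGSs and at 4.36, 13.7 and 10.9 in GSs at 0 h. In NGSs it was at 34.3, 19.2 and 2.54 at 6 h and 1.30, 1.06 and 1.27 at 96 h. RD243 was at 182, 286 and 140.0 in NGSs and 5.98, 14.9 and 17.7 in GSs at 0 h, and RD971 at 89.3, 119 and 54.1 and 2.44, 4.04 and 3.19. In all 6 genes every NGS library at 0 h lay above every other library. Without the NGSs at 0 h the mean FPKM of RD971, RD965, RD631 and RD870 was 1.26 to 1.89, so these 4 genes were kept only for their level in that group and had to differ from it. Their differences are given as a description. For RD960 and RD243 that mean was 6.06 and 7.65. The fall of RD960 in NGSs at 96 h was -6.94 ± 0.88 (SE), adjusted p = 2.46e-06, and the difference of GSs from NGSs at 0 h was -4.79 ± 0.88 (SE), adjusted p = 0.00107. For RD243 these were -6.46 ± 0.90 (SE), adjusted p = 7.09e-06, and -3.93 ± 0.90 (SE), adjusted p = 0.00539. The values of RD971 were -6.13 and -4.34. All 6 were called down in NGSs at all 5 time points, with log2 fold changes of -2.86 to -6.94. In GSs, 4 of the 6 were called down at 96 h and none earlier.

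Ribosomal RNA moved with these 6 genes. The RefSeq table annotates 44 genes of the deposited table as rRNA, and 4 of them had a mean FPKM of at least 3: rrn26 of the mitochondrion, LyesC2r001 of the plastid, and LOC112941208 and LOC112940391 of chromosomes 3 and 11. All 4 were highest in NGSs at 0 h. The NGS libraries there had FPKM of 269, 427 and 397 for rrn26, against 41.1, 62.3 and 52.3 in GSs at 0 h, and the NGS means at 96 h were 12.4 for rrn26 and 4.52 for LOC112941208. Over the 36 libraries the 6 genes had r = 0.90 to 0.96 with rrn26 on the log2 scale, and the next read-defined gene, RD704, had 0.71. Deviations from the group means, which leave out the differences between groups, still had r = 0.85 to 0.94 with rrn26. With LOC112941208 they had 0.81 to 0.93, with LyesC2r001 0.77 to 0.88 and with LOC112940391 0.73 to 0.82. GS replicate 12 at 48 h shows this in a single library: rrn26 was at 25.01, 22.5 and 156 in replicates 10, 11 and 12, and RD243 at 1.59, 3.37 and 30.9. These 6 genes were grouped after their values were seen, and the points share their libraries and normalization. The part of ribosomal RNA in their differences was not tested. With the mean rRNA level of each library as a covariate, the NGS fall at 96 h was -1.64 (adjusted p = 0.0665) for RD960 and -0.79 (0.206) for RD243. Since this covariate itself separates the NGS libraries of 0 h from those of 96 h, these values cannot show what part rRNA had. The annotated gene most like RD960, RD971 and RD243 over the 36 libraries was LOC112940606 (r = 0.98 to 0.99), which RefSeq annotates as a pseudogene, and the 3 most similar pairs among the 188 genes were RD960 with RD971 (r = 0.98), RD971 with RD965 (0.97) and RD960 with RD243 (0.97).

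Leaving the 6 out, the read-defined genes called in NGSs were 60, 66, 58, 56 and 53 from 6 h to 96 h, in place of 66, 72, 64, 62 and 59. With the rRNA covariate and all genes kept, they were 66, 63, 55, 40 and 24. At 48 and 96 h the NGS counts therefore depended on this covariate, and in GSs the counts with it were 66, 40, 19, 43 and 51, against 66, 40, 22, 44 and 57.

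**Figure D4:**
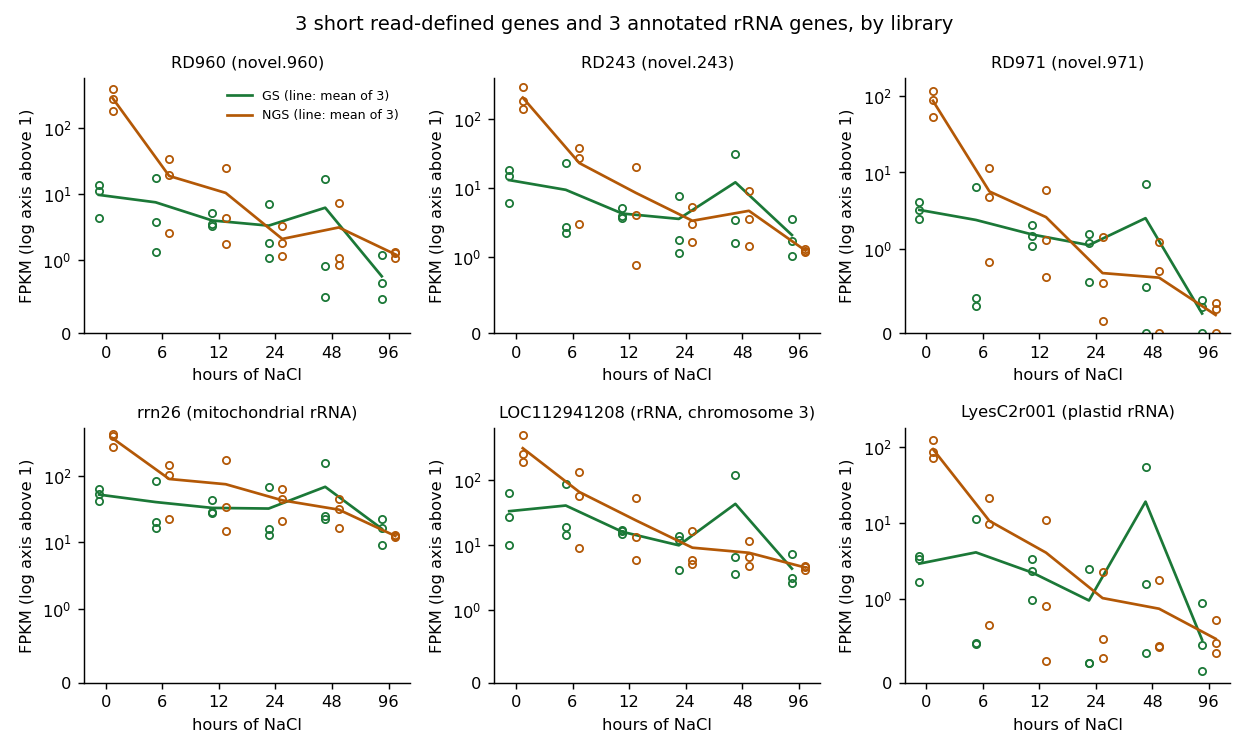
FPKM (vertical axis, logarithmic above 1 and linear below) of 3 short read-defined genes in the upper row and 3 annotated rRNA genes in the lower row against hours of NaCl, with 1 circle per library, GSs in green and NGSs in brown, and lines through the means of 3 libraries. The NGS libraries at 0 h are highest in all 6 panels, and 1 GS library at 48 h lies far above its replicates in all 6.

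Between GSs and NGSs, differences were called at 0 and 6 h. At 0 h, 7 read-defined genes were higher and 13 lower in GSs (10.6% in all, background 1.51% higher, 3.56% lower, 5.07% in all). The 6 short genes are among the 13, and without them 7 were higher and 7 lower. With the rRNA covariate, which also separates GSs from NGSs at 0 h, 8 were called. The count was 12 without NGS replicate 3 at 0 h. At 6 h, 6 were higher and 9 lower in GSs (7.98% in all, background 1.99% higher, 2.41% lower, 4.4% in all). Libraries of both kinds of seedling with the same replicate number deviated together at 6 h. With the replicate number as a block in the 6 libraries compared 0 were called, as in a fit of these 6 libraries without the block, and with the block in a fit of all libraries 17 were. The 6 h count also rested on single libraries. It was 1 without GS replicate 1, 4 without GS replicate 2, 2 without NGS replicate 1, 8 without NGS replicate 3 and 24 without NGS replicate 2. At 12, 24, 48 and 96 h, limma called 0 (background 0.0448%, 0.0249%, 0.0498% and 0.00996%). Of the read-defined genes, 32, 29, 29 and 10 had an unadjusted p under 0.05 by limma at these time points. Over all 20090 genes tested there were 3452, 2421, 2297 and 907 such genes. Whether the shares of the read-defined genes differ from these was not tested. With voom on the recovered reads 1 was called at 24 h and 0 at the other 3 time points. Leaving out 1 library gave 1 at 12 h (without NGS replicate 5), 5 and 1 at 24 h (without NGS replicate 8 and GS replicate 7), 3 at 48 h (without NGS replicate 12) and 1 at 96 h (without NGS replicate 13).

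Averaged over the 6 time points, with 18 libraries of each kind of seedling, 2 of the 188 genes (1.06%, background 0.0398%) were called, both higher in GSs, and 4 without NGS replicate 8 at 24 h. RD732 (925 bases, mean 23.5) was at 58.1, 35.04 and 11.9 in GSs and 10.2, 7.69 and 5.61 in NGSs at 0 h. At 12 h it was at 64.8, 52.04 and 37.6 against 9.71, 10.7 and 7.36, and at 24 h at 35.3, 26.5 and 37.7 against 4.69, 2.02 and 6.48. The ranges did not overlap at 0, 12 and 24 h, and they overlapped at 6, 48 and 96 h, where GS libraries were at 1.10, 4.68 and 15.9 and NGS libraries at 5.67, 26.8 and 4.16. The average difference was 1.39 ± 0.27 (SE), adjusted p = 0.0181. RD734 (908 bases) was at 26.3, 27.9 and 10.3 in GSs against 1.98, 4.81 and 3.27 in NGSs at 6 h, at 10.5, 8.67 and 21.03 against 1.64, 0.859 and 2.59 at 24 h, and at 0.714, 0.625 and 2.09 against 1.54, 3.47 and 2.14 at 96 h. Its average difference was 1.11 ± 0.20 (SE), adjusted p = 0.0159. GS means were above NGS means at 5 of 6 time points in both genes, with 96 h as the exception. Neither passed the threshold when 0 h was left out of the average (RD732 1.31, adjusted p = 0.0927; RD734 1.19, adjusted p = 0.0509), and RD734 did not with voom on the recovered reads (1.26, adjusted p = 0.0571). With the replicate number at each time point as a block neither was called either (adjusted p = 0.144 and 0.173), although the numbers pair the libraries at 6 h alone. Leaving out each of the 36 libraries in turn kept both calls, as did leaving out the 4 NGS libraries that stood apart (1.61 and 1.26). The annotated genes most like RD732 were LOC104649419 (r = 0.89) and LOC104649361 (0.88), and LOC104649361 was also the one most like RD734 (0.80).

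At 6 h the largest called differences were those of RD701, RD734 and RD224, all higher in GSs. RD701 (1294 bases) was at 19.7, 20.9 and 13.6 in GSs and 0.132, 10.3 and 0.720 in NGSs (2.75 ± 0.73 (SE), adjusted p = 0.0208), and RD224 (1224 bases) at 43.2, 50.01 and 33.3 and 1.99, 23.99 and 10.2 (2.18 ± 0.52 (SE), adjusted p = 0.0120). The ranges of RD701, RD224 and RD734 did not overlap at 6 h. NGS replicate 2 was the highest NGS library in all 3, and leaving out each of the 6 libraries in turn lost the call in 4, 3 and 2 of 6 fits for RD701, RD224 and RD734, with adjusted p of up to 0.160, 0.129 and 0.0579. RD224 also rose late in both kinds of seedling, to 48.04, 84.2 and 85.01 in GSs and 35.6, 47.4 and 54.2 in NGSs at 96 h (2.82 ± 0.52 (SE), adjusted p = 2.48e-04, and 2.70 ± 0.52 (SE), adjusted p = 2.43e-04).

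The fold change against 0 h, here called the response, was compared between GSs and NGSs. Differences were called for 34 of the 188 genes at 1 time point or more (18.1%, background 14%). By time point they were 14 at 6 h (background 4.91%), 19 at 12 h (background 6.44%), 13 at 24 h (background 4.61%), 21 at 48 h (background 5.89%) and 1 at 96 h (background 0.254%). All 5 contrasts share the 0 h libraries of both kinds of seedling, and 16 of the 34 genes (47.1%, against 30.9% of all genes with such a difference) already differed by a call between GSs and NGSs at 0 h. The 6 short genes gave 2, 5, 5, 6 and 1 of these calls. With the rRNA covariate, which sets the NGS libraries at 0 h apart, the counts were 5, 10, 11, 6 and 0. Single libraries moved them too. At 6 h the count was 22 without NGS replicate 2 at 6 h and 7 without NGS replicate 3 at 6 h. At 12 h it was 8 without GS replicate 3 at 0 h, GS replicate 6 at 12 h or NGS replicate 3 at 0 h, 9 without GS replicate 4 at 12 h, 10 without GS replicate 2 at 0 h and 12 without NGS replicate 5 at 12 h. At 24 h it was 8 without NGS replicate 3 at 0 h and 5 without the 4 libraries that stood apart, and at 48 h 8 without NGS replicate 11. The 6 h count was also 9 without GS replicate 1 or 3 at 0 h and 8 without GS replicate 1 at 6 h. The 96 h count was 0 in 10 of the 12 fits that left out 1 library, 2 without NGS replicate 1 at 0 h and 0 without the 4 libraries that stood apart.

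RD76 (1231 bases, mean 3.12) differed in direction at 6 h. In GSs it went from 2.38, 4.65 and 3.56 at 0 h to 1.28, 0.359 and 1.62 at 6 h (-1.14 ± 0.41 (SE), adjusted p = 0.0271), and in NGSs from 1.57, 0.802 and 0.102 to 9.95, 4.18 and 4.29 (1.96 ± 0.41 (SE), adjusted p = 3.22e-04). Neither the 0 h nor the 6 h ranges of the 2 kinds of seedling overlapped, and the sign of the difference changed between them. The difference of the responses was -3.10 ± 0.58 (SE), adjusted p = 0.00272, and it was called in all 12 fits that left out 1 library, with adjusted p of up to 0.0135. Its mean over the other libraries fell to 2.63 without GSs at 12 h and stayed under 3 without NGSs at 6 h. Its level there helped to keep it, so its rise in NGSs at 6 h and its response difference are a description. At 12 h both kinds of seedling were above their 0 h libraries, at 7.76, 10.3 and 7.59 and 3.82, 3.95 and 3.54, and at 96 h all 6 libraries were at 0.640 or less. RD422, described above for its level, differed at 12, 24 and 48 h (-1.40 ± 0.39 (SE), adjusted p = 0.0262, at 12 h, and no call at 24 h without the 4 libraries that stood apart, adjusted p = 0.0656), where GS means were 50.5, 97.1 and 68.1 after 113 at 0 h, and NGS means 66.4, 143 and 106 after 60.2.

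**Figure D5:**
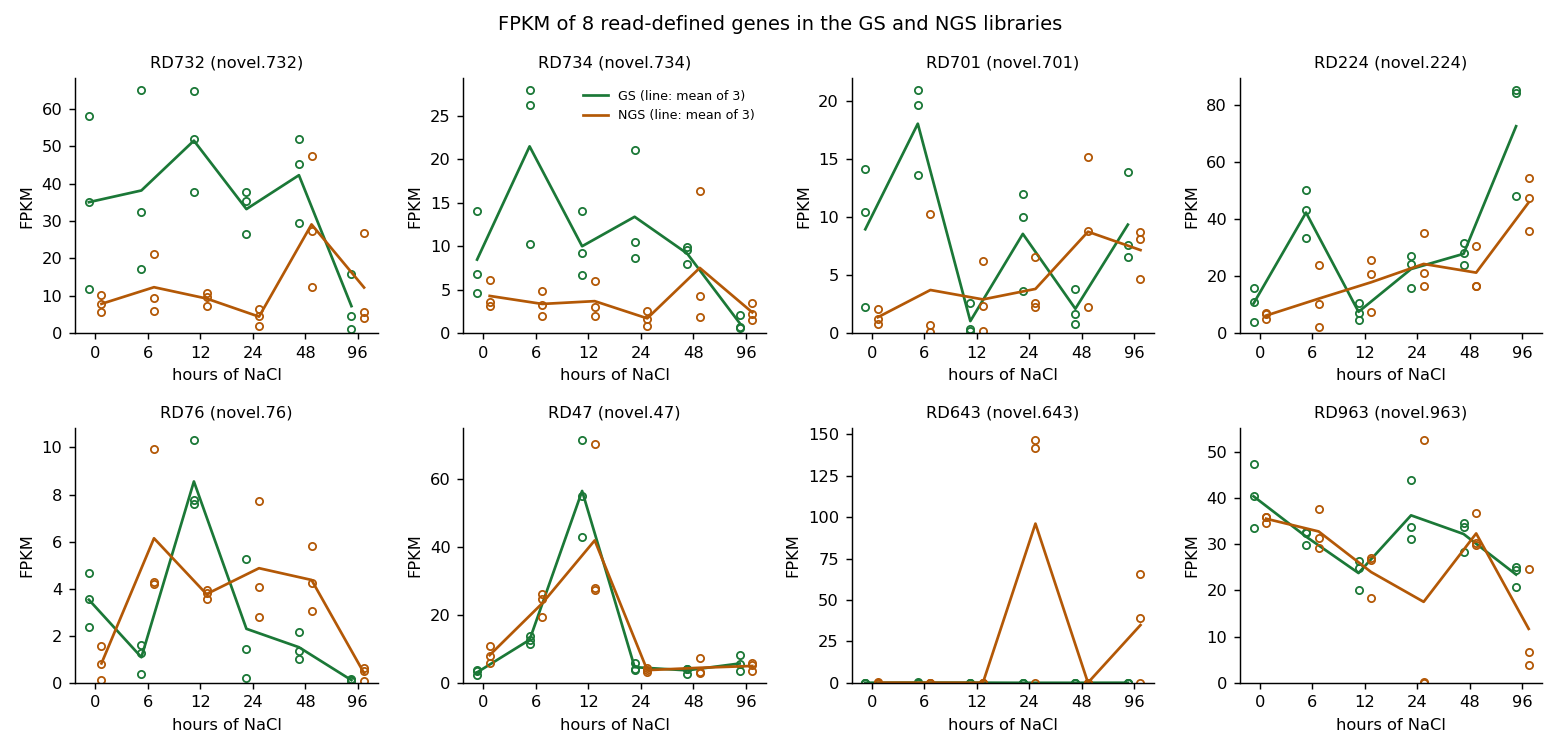
FPKM (vertical axis, linear) of 8 read-defined genes against hours of NaCl, with 1 open circle per library, GSs in green and NGSs in brown, and lines through the means of 3 libraries. RD732 and RD734 have higher GS than NGS means at every time point but 96 h, RD76 moves in opposite directions at 6 h, and in RD643 and RD963 the same NGS libraries of 24 and 96 h stand apart from all others.

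Some read-defined genes hardly moved. RD725, RD569 and RD14 had the smallest SD of the 12 group means, 0.197, 0.208 and 0.215 on the log2 scale, and none of the 3 was called in any comparison. RD14 (1970 bases) was at 7.84, 9.03 and 6.99 in GSs and 7.21, 7.69 and 8.86 in NGSs at 0 h, and at 6.79, 6.83 and 7.06 and 6.53, 6.78 and 6.48 at 96 h. In all, 46 of the 188 genes (24.5%, against 40.6% of annotated genes) were called in none of the 10 comparisons with 0 h. Called in 5 or more of them were 54 genes (28.7%, background 16.3%). RD971, RD965, RD631 and RD870, kept only for their level in NGSs at 0 h, are among these 54. Called up at some time point and down at another were 18 (9.57%, background 6.16%), RD888, RD422 and RD76 among them.

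Pairs of read-defined genes had r from -0.94 to 0.98 over the 36 libraries. Over 17578 pairs the median r was 0.01, with pairs of either sign. Of these, 123 pairs, with 88 genes in them, had r of at least 0.8, and 629 pairs had r of -0.6 or less. No such counts are given for annotated genes. For 40 pairs whose deposited identifiers have consecutive numbers the median r was 0.05, the highest was 0.77 and none reached 0.8. So few pairs cannot show whether consecutive numbers go with closer pairs. Where read-defined genes were called at the same time point in both kinds of seedling, which use separate 0 h libraries, they moved the same way in 33 of 34 cases at 6 h, 27 of 27 at 12 h, 18 of 18 at 24 h, 26 of 28 at 48 h and 39 of 39 at 96 h. The shared genes were 51.5% of those called in GSs and 51.5% of those called in NGSs at 6 h, and 68.4% and 66.1% at 96 h. At 24 h they were 81.8% of the GS calls and 28.1% of the NGS calls. Over all genes tested the shares of called genes that were shared were 61.4% in GSs against 57.0% in NGSs for 6 h, 83.1% against 23.0% for 24 h and 63.3% against 45.9% for 96 h, and 98.6% to 99.8% of shared calls had the same direction. Without the 4 libraries that stood apart 19 read-defined genes were shared at 24 h and 26 at 96 h, all in the same direction.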

How the data were processed

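Leaf RNA of 36 libraries was read on an Illumina sequencer, and the authors mapped clean reads to the tomato SL 2.0 genome with HISAT. The submitters' processing notes list HISAT2 2.0.5 and featureCounts 1.5.0-p3. The deposited table holds FPKM per gene and library, whose unit was read from the values. How the authors defined genes outside the annotation is not given in the sources used here.

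Genes of this kind with a mean FPKM of at least 3 over all libraries were kept. These genes, the lists and the tests were chosen with earlier results of these data known. Values of each gene were whole multiples of what 1 read is worth, which gave reads and lengths for all 27368 genes above 0, and these set the depth (15232863 to 26661747 reads per library). The number of reads limits the precision of low genes. The 20090 genes with 3 or more libraries at FPKM 1 or higher were tested as log2(FPKM + 1) with limma 3.58.1 in R 4.3.3 (12 group means, 36 libraries in 1 fit, trend), with Benjamini-Hochberg adjustment within each of 22 comparisons. This scale understates the change of low genes. Python 3.11.15, NumPy 2.4.6, pandas 2.3.3, SciPy 1.17.1 and matplotlib 3.10.9 served for the rest. The recovery and the fit were tested on simulated data.

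Named genes were the 8 with the highest mean FPKM, those called one way in all 10 comparisons with 0 h, the 5 largest called rises and falls, those called in the GS against NGS average (at most 8) or among the 3 largest at a time point, the 3 largest called response differences per time point, the 3 most and 3 least variable, and those nearest the threshold. Genes in which 1 library held over 50% of the summed FPKM would have been named, and there were none. For the first and second group and the first 5 of the grafting differences the 3 most similar annotated genes were found, with the 3 most similar pairs of all. Other genes were picked after their values were seen, as were the 6 short genes and the 4 libraries.

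Same-numbered GS and NGS libraries correlated in every pair above 0.1 at 6 h alone (r = 0.12 to 0.43 of deviations from group means). Their numbers come from the labels. Alternatives were another pseudocount, no filter, library totals as the scale, voom on recovered reads, fits of only the libraries compared, a replicate block, no minimum fold change, other level minimums and each library left out. The rRNA covariate, the average without 0 h, the block in a fit of all libraries, the fit without 4 libraries and the means that leave out 1 group were chosen after seeing the data.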

Additional observations from a re-analysis of the deposited data

Results flagged for a closer look

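The largest called differences between the responses of GSs and NGSs are listed here as values, by limma's test of the difference itself on the log2(FPKM + 1) scale, with positive values where GSs stood higher relative to their 0 h libraries. At 6 h they were 3.32 for RD965, 3.26 for RD971 and -3.10 for RD76. At 12 h they were 4.22 for RD960, 4.09 for RD971 and 3.62 for RD965. At 24 h they were 5.08 for RD960, 4.68 for RD971 and 4.01 for RD965. At 48 h they were 5.01 for RD960, 4.89 for RD971 and 4.51 for RD243. At 96 h the only one was 4.36 for RD971. Leaving out each of the 12 libraries in turn lost 11 of 12 calls for RD971 at 96 h, 8 for RD960 at 12 h, 6 for RD971 at 6 h, 6 for RD243 at 48 h, 4 for RD965 at 6 h and 1 for RD960 at 48 h, and none of the others. Without the 4 NGS libraries that stood apart, RD960 at 24 h (adjusted p = 0.0639) and RD971 at 96 h (adjusted p = 0.160) were not called. All but that of RD76 belong to the 6 short genes that moved with annotated ribosomal RNA and were highest in the NGS libraries at 0 h, and all 5 time points share those 0 h libraries. RD971 and RD965 reached a mean FPKM of 3 only through these libraries, so their values are a description. That of RD76 is one too, since its mean was under 3 without NGSs at 6 h. The part of ribosomal RNA in the values of the 6 short genes was not tested, since the covariate itself sets the NGS libraries at 0 h apart.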

How the results depend on the processing

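No library without NaCl was taken after 0 h, groups held 3 libraries, and low genes rested on few reads (a median of 213 per library). Counts below are read-defined genes called. The causes of these changes were not tested, except where fewer libraries entered a fit.

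A fit of only the libraries compared gave 7 for GSs at 24 h against 0 h, 0 for GSs against NGSs at 6 h, and 7 and 8 for the responses at 6 and 96 h. The rRNA covariate itself sets the NGS libraries at 0 h apart. With it the counts were 40 and 24 for NGSs at 48 and 96 h and 8 for GSs against NGSs at 0 h. For the responses at 6, 12, 48 and 96 h they were 5, 10, 6 and 0. A replicate block gave 5 for GSs against NGSs at 0 h, 0 at 6 h, where alone the numbers pair the libraries, and 0 for the average, and in the fit of all libraries it gave 4 at 48 h. It moved no other count by over 1.5 times. The average without 0 h gave 0. A pseudocount of 0.1, library totals as the scale, and voom each gave 1 for GSs against NGSs at 24 h and 0 for the response at 96 h. The response at 48 h gave 13 with the pseudocount of 0.1 and 8 with voom, and that at 6 h gave 9 with voom. Without the 4 NGS libraries the responses gave 5 at 24 h and 0 at 96 h, and RD643 in NGSs at 24 h was -0.11 on the log2 scale. With no minimum fold change, 71 genes in GSs and 97 in NGSs were called in both phases and 32 and 31 in neither. At a mean FPKM of at least 1, 65.5% of 359 genes were called against 0 h.

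Leaving out each library in turn gave, against 0 h and in order of time, 54 to 68, 33 to 40, 8 to 28, 33 to 41 and 47 to 54 in GSs and 61 to 74, 66 to 78, 56 to 70, 54 to 60 and 55 to 61 in NGSs. For GSs against NGSs it gave, in order from 0 h, 12 to 21, 1 to 24, 0 to 1, 0 to 5, 0 to 3 and 0 to 1, and 2 to 4 for the average. For the responses it gave 7 to 22, 8 to 25, 8 to 16, 8 to 26 and 0 to 2. Of the values of named genes under these alternatives, 441 kept direction and call, 96 lost the call and 1, that of RD643, reversed.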
